A study of Mus musculus with 2 samples.

Results

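Genes of iron uptake and ferritin storage were described in the liver of the mouse embryo at embryonic day 12.5. The set holds 10 named genes (Tfrc, Trf, Steap3, Slc11a2, Slc25a37, Fth1, Ftl1, Pcbp1, Pcbp2 and Ncoa4) of the 43346 mouse genes in the tables, chosen by name and matched to gene identifiers, and all 10 were found. RNA came from pooled livers of healthy B6NCrl embryos of both sexes, with 120 embryos in the pool of replicate 1 and 88 in the pool of replicate 2. Both libraries form 1 untreated group, so the data give levels, transcript makeup and the difference between 2 pools, and no comparison between conditions or animals. The libraries held 37.6 M (replicate 1) and 34.7 M (replicate 2) expected counts, which are estimated reads. Levels are in TPM, an abundance per transcript length scaled to the depth of the library, given as mean ± SD over both libraries (n = 2).

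Cells take up iron mostly as transferrin, a plasma protein made by hepatocytes. The transferrin receptor carries it into endosomes, where iron is reduced, moved to the cytosol and passed on to mitochondria for heme or into ferritin, a shell of heavy and light chains, for storage. When iron is scarce, iron regulatory proteins bind hairpins called iron-responsive elements, which holds back translation where the hairpin lies before the coding part and protects the RNA from decay where it lies after it. The fetal liver is the main site of red cell formation at this age, and erythroblasts are the largest users of iron.

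The elements are shown because 4 of the 10 genes carry them in an untranslated region (UTR), on different sides of the coding part, and because transcripts of one gene differ in carrying one. The other 6 genes had no match in a UTR. Annotated transcript sequences (GENCODE M21, assembly mm10) were searched, on the sense strand only, for C, 5 bases, CAGTGN and 5 bases, with at least 4 of 5 pairs between both 5-base arms, G with T counted as a pair. Each sequence runs 5′ to 3′ over 27 bases, and capitals mark the C below the arm and the loop CAGTGN.
Fth1, 5′ UTR, chr19:9982733-9982759, plus strand: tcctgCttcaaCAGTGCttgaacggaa
Ftl1, 5′ UTR, chr7:45459780-45459806, minus strand: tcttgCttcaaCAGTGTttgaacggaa
Tfrc element 1, 3′ UTR, chr16:32631220-32631246, plus strand: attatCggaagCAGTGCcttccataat
Tfrc element 2, 3′ UTR, chr16:32631599-32631625, plus strand: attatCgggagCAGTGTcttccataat
Tfrc element 3, 3′ UTR, chr16:32631664-32631690, plus strand: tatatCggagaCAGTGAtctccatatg
Tfrc element 4, 3′ UTR, chr16:32631711-32631737, plus strand: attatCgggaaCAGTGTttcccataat
Slc11a2, 3′ UTR, chr15:100395154-100395180, minus strand: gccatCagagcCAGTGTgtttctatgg

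The ferritin elements were alike in 25 of 27 bases. Counted from 1 at the 5′ end, with the Fth1 base first, they differed by C3T and C17T, so both arms were the same in the heavy and light chain genes. The first and second Tfrc elements also shared 25 of 27 bases and differed by A9G and C17T. All 5 arm pairs formed in the ferritin and Tfrc elements, and 4 of 5 in the Slc11a2 element. The pattern by itself is not rare. At least 4 pairs occurred in 7.75% of 58797 annotated protein-coding transcripts and all 5 in 0.961%, and 1 match lay in the coding part of Pcbp2-203. By gene the shares were 10.7% and 1.34% of 21901 protein-coding genes. These shares count matches in any part of a transcript, so they are not like for like with the 4 genes counted in UTRs. A match is a run of letters and not a measured binding site. The search fixed the loop as CAGTGN, so an element with another loop would be missed. The C of the element lay at base 93 of Fth1-201, before a coding part that started at base 225, and at base 84 of Ftl1-201, before one that started at base 254. In Tfrc-201 it lay at bases 3321, 3700, 3765 and 3812, all after the coding part ended at base 2429.

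**Figure D1:**
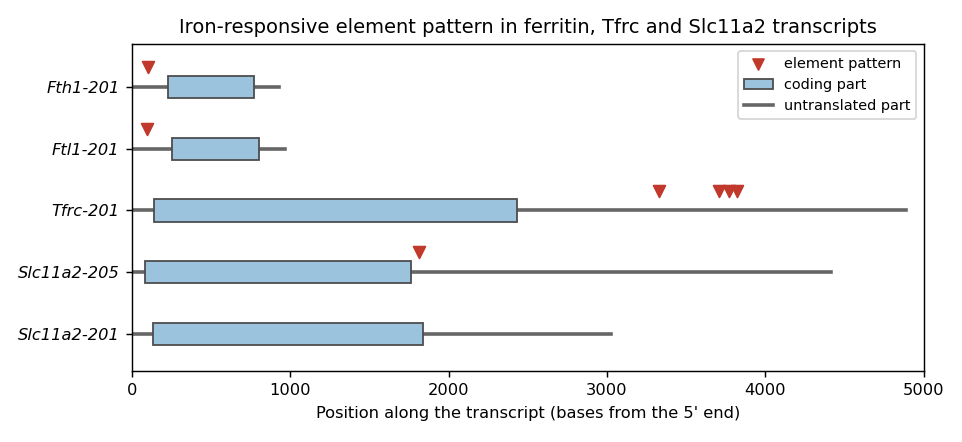
Positions of the element pattern (triangles) along 5 annotated transcripts in bases from the 5′ end, with the coding part as a box and untranslated parts as lines. The element lies before the box in both ferritin transcripts and after it in Tfrc-201 (4 elements) and Slc11a2-205 (1 element), and Slc11a2-201 has none.

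The labelled tissue was checked against markers first. The hepatoblast markers Afp, Alb and Hnf4a, the erythroid markers Gata1 and Klf1 and the macrophage markers Adgre1, C1qb and Cd5l were all found at 1 TPM or more in both libraries. Summed levels in replicates 1 and 2 were 6223 and 6062 TPM for the hepatoblast markers, 615 and 577 TPM for the erythroid markers and 63.9 and 64.0 TPM for the macrophage markers. The RNA thus mixes cell types, and fewer cells of a type cannot be told apart from less RNA per cell. The sums rest on different genes, with Afp alone at 5312 and 5136 TPM and no globin among the erythroid markers. They do not compare the amounts of RNA of these cell types. Which cells made each transcript was not measured.

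The 10 genes spanned from 35.6 to 6961 TPM, and 7 of them stood at 100 TPM or more in both libraries. Their median was 308 TPM, beside 12.7 TPM over all 12841 genes at 1 TPM or more in both libraries. They made up 1.60% of all TPM in replicate 1 and 1.54% in replicate 2. By mean level the order was Ftl1, Fth1, Trf, Pcbp1, Slc25a37, Tfrc, Ncoa4, Slc11a2, Steap3 and Pcbp2, and no neighbours in that order overlapped in their values. The closest neighbours, Slc11a2 and Steap3, differed by 2.66 TPM against a combined SD of 1.97 TPM, so with 2 libraries their order is not firm. Each other pair of neighbours differed by over 4 times its combined SD. The order also rests on which transcript models are counted. With protein-coding models alone, chosen after seeing the data, Ncoa4 (243 ± 1.03 TPM) stood above Tfrc (194 ± 0.9899 TPM), and Steap3 (47.7 ± 0.856 TPM) above Slc11a2 (45.9 ± 0.771 TPM).

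**Figure D2:**
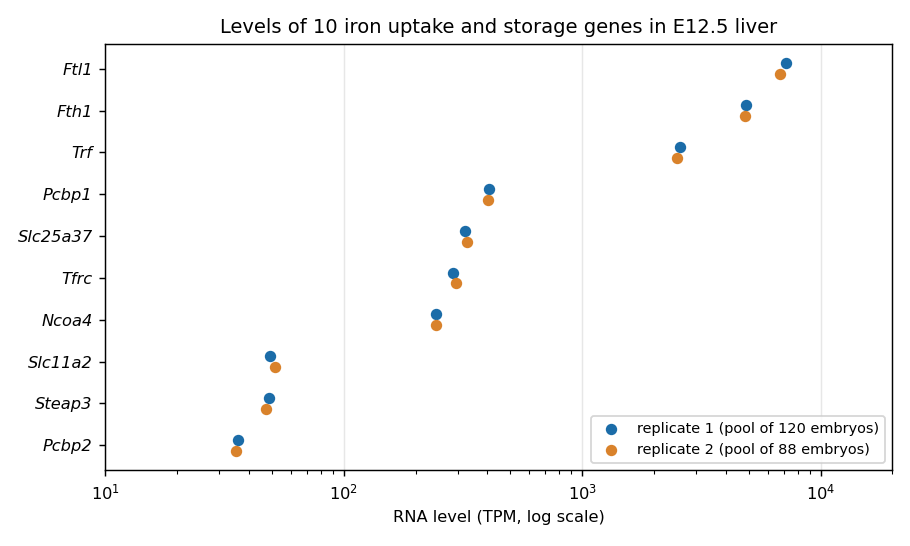
RNA level in TPM (log axis) of each gene, with 1 point per library. Points of the same gene nearly coincide, the ferritin genes lie between 4801 and 7175 TPM, and Slc11a2, Steap3 and Pcbp2 lie between 35.1 and 51.6 TPM.

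Among genes of iron supply and entry, the ligand far exceeded its receptor. Trf, which encodes transferrin (chromosome 9, 103204001 to 103230444), had 2570 and 2490 TPM in replicates 1 and 2, rank 24 among detected genes. Tfrc, which encodes the transferrin receptor (chromosome 16, 32608920 to 32632794), had 286 and 296 TPM, rank 395. Trf thus stood 8.99 and 8.42 times above Tfrc in replicates 1 and 2. Over all transcript models it also exceeded Alb, the albumin gene (905 ± 10.8 TPM), by 2.80 ± 0.0958 times. Part of the Trf level came from a short transcript model, described with the transcripts. Trf protein-coding models alone gave 1732 ± 31.5 TPM, which is nearer to Alb.

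The endosomal step had lower RNA levels than the receptor. Steap3, whose product reduces iron in the endosomes of erythroid cells (chromosome 1, 120190757 to 120272705), had 48.3 and 47.1 TPM in replicates 1 and 2. Slc11a2, which encodes the divalent metal transporter DMT1 that carries iron out of the endosome (chromosome 15, 100387898 to 100425072), had 49.1 and 51.6 TPM. Over all transcript models, Tfrc exceeded Steap3 by 6.10 ± 0.255 times and Slc11a2 by 5.77 ± 0.0659 times, in the same direction in both libraries. With protein-coding models alone the levels lay closer together, at 194 TPM for Tfrc, 47.7 TPM for Steap3 and 45.9 TPM for Slc11a2.

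At the mitochondrion, Slc25a37 had 323 and 329 TPM in replicates 1 and 2. It encodes mitoferrin-1, the iron importer of erythroid mitochondria (chromosome 14, 69241848 to 69285112). Its level was 1.13 and 1.11 times that of Tfrc in replicates 1 and 2, and 1.49 ± 0.00559 times with protein-coding models alone. The paralog Slc25a28, which encodes the more broadly expressed mitoferrin-2, had 8.71 and 7.57 TPM. The erythroid form was therefore 37.0 and 43.5 times the other in replicates 1 and 2.

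Ferritin RNA dominated the set. Ftl1, the light chain gene (chromosome 7, 45457944 to 45459884), had 7175 and 6747 TPM in replicates 1 and 2, rank 6 of all detected genes. Fth1, the gene of the heavy chain, which oxidises iron as it enters the shell (chromosome 19, 9980598 to 9985098), had 4873 and 4801 TPM, rank 13. Together they made up 75.0% ± 0.350 of the TPM of the 10 genes and 1.18% ± 0.0353 of all TPM. With globin genes, spike-ins and tRNA entries left out of the total, the ferritin share was 1.72% ± 0.0336.

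Light chain RNA exceeded heavy chain RNA in both pools. The Ftl1 to Fth1 ratio was 1.47 in replicate 1 and 1.41 in replicate 2 (1.44 ± 0.0474). Tfrc stood far below the ferritin pair, at 0.0237 and 0.0256 of their summed TPM, so ferritin RNA was 40.6 ± 2.18 times as high per length. These are RNA levels, and genes with elements before the coding part are known to be regulated at translation, which was not measured here.

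Of the ferritin iron chaperones, Pcbp1 had by far the higher level. Both encode poly(C)-binding proteins, which deliver iron to ferritin and also bind RNA. Pcbp1, an intronless gene (chromosome 6, 86524492 to 86526321), had 404.5 and 404.1 TPM in replicates 1 and 2. Pcbp2 (chromosome 15, 102470539 to 102500061) had 36.1 and 35.1 TPM, the lowest of the set. The Pcbp1 to Pcbp2 ratio was 11.2 in replicate 1 and 11.5 in replicate 2. The Pcbp2 level rests on the 3 transcript models quantified, whose lengths differ in the later annotation release. Whether other models would change the ratio was not tested.

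Ncoa4 encodes the receptor that takes ferritin to the lysosome for breakdown, which releases its iron (chromosome 14, 32159865 to 32179855). It had 243 and 244 TPM in replicates 1 and 2, rank 479. Fth1, whose product Ncoa4 protein binds, was 19.8 ± 0.276 times as high. By TPM, values of both libraries lay closer together for Pcbp1 and Ncoa4 than for the other genes, with coefficients of variation of 0.0822% and 0.339%. Ftl1 was at the other end, with 4.35%. With 2 libraries this is no trait of a gene, and it depends on scaling. With spike-in centring the log2 ratios between pools were 0.118 for Pcbp1 and 0.109 for Ncoa4, against 0.0447 for Slc11a2.

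Transcript makeup was examined over the 50 annotated transcripts of the 10 genes, of which 42 had values above 0 in both libraries. The same transcript led by TPM in both libraries for 9 of 10 genes, Pcbp2 being the exception. Fth1 and Pcbp1 had 1 transcript each in the annotation used. Ftl1-201 held 98.6% ± 0.0921 of Ftl1 TPM.

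Most Slc11a2 RNA was in the form without the element. DMT1 RNA is known in forms with and without an iron-responsive element, whose proteins differ at the end. Slc11a2-201, which has no match of at least 4 pairs, had 33.7 and 33.3 TPM in replicates 1 and 2. Slc11a2-205, in which the C of the element lies at base 1803, past the end of the coding part at base 1762, had 10.4 and 11.03 TPM. The form with the element held 21.1% of Slc11a2 TPM in replicate 1 and 21.4% in replicate 2 (21.2% ± 0.184), and Slc11a2-201 held 68.6% and 64.5%. The form without the element was thus 3.25 and 3.02 times the other. By expected counts, which are not per length, the form with the element held 30.7% and 32.1%.

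These 2 transcripts share 14 exons with the same ends and differ mainly at the 3′ end. Slc11a2-205 ends in an exon of 2761 bases at 100392563 to 100395323, and Slc11a2-201 splices out of that exon to a later one at 100387898 to 100389161. Their first exons end at the same place and differ in where they begin, and transcripts with first exons farther upstream (Slc11a2-202, Slc11a2-207 and Slc11a2-208) had at most 6.69 expected counts in either library. The authors' posterior SD of the count, a measure of how firmly reads were divided among transcripts, was 34.7 reads for Slc11a2-201 and 30.2 for Slc11a2-205 in replicate 1, beside 3107 and 1408 reads. The share depends on the pattern rule. Asking for at least 3 pairs put 95.3% of Slc11a2 TPM in transcripts with a match, since both forms then had matches, and asking for all 5 left 0%.

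Most Tfrc RNA was in transcripts that carry the 4 matched elements. Tfrc-201, the full coding transcript, had 172 and 176 TPM and held 59.8% ± 0.547 of Tfrc TPM. Tfrc-204, annotated as a retained-intron transcript, had 67.9 and 68.8 TPM (23.5% ± 0.331) and also holds the 4 elements. Transcripts with the elements made up 83.3% ± 0.878 of Tfrc TPM and 96.7% ± 0.0166 of its expected counts. The remainder included Tfrc-205, a 571-base retained-intron model that held 8.54% of TPM in replicate 1 and 10.7% in replicate 2 from 1.05% and 1.35% of the counts.

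A short model took much of the Trf level. Trf-209 is a retained-intron model of 433 bases, and it held 31.5% and 31.2% of Trf TPM in replicates 1 and 2. Its reads were only 6.05% and 5.95% of the gene's expected counts, while the full-length Trf-201 held 61.8% ± 0.00274 of TPM and 87.9% and 87.3% of counts. TPM divides by transcript length, so reads placed on a short model weigh more. Whether the reads came from a transcript with the ends of that model was not tested. With protein-coding models alone, Trf was 1732 TPM and Tfrc 194 TPM, against 2530 and 291 TPM over all models.

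The other genes were each led by a coding transcript. Slc25a37-201 held 88.6% ± 0.431 of TPM and the retained-intron transcript Slc25a37-203 held 10.4% ± 0.393. Ncoa4-201 held 81.1% ± 0.910 and Ncoa4-202, which is also coding, 12.1% ± 0.713. Steap3-202 held 90.9% ± 1.29. Pcbp2 was split nearly evenly, with Pcbp2-201 at 46.4% and 54.4% and Pcbp2-203 at 48.0% and 43.2% in replicates 1 and 2. The order of these Pcbp2 transcripts differed between the pools, and the posterior SD of their counts in replicate 1 was 138 and 129 reads on 1460 and 1459 reads, so neither can be said to lead.

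**Figure D3:**
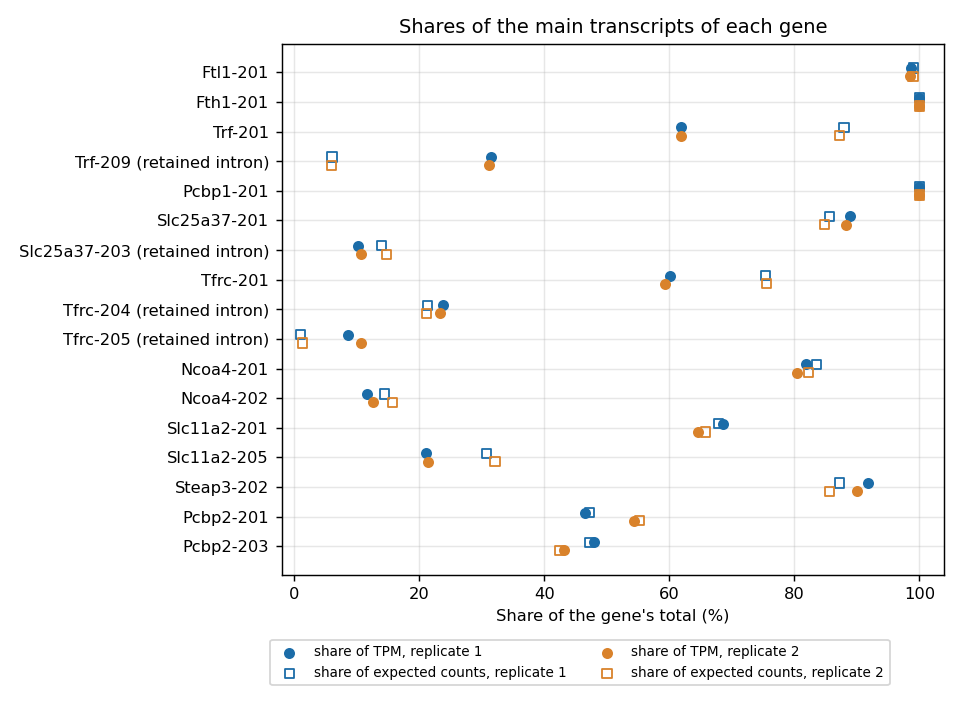
Share of each gene's TPM (filled circles) and expected counts (open squares) in every transcript with at least 10% of TPM in either library, by replicate. Circle and square lie far apart for Trf-209, at 31.5% of TPM and 6.05% of counts in replicate 1, and for Trf-201, at 61.8% and 87.9%, and Slc11a2-205 lies near 21% of TPM in both replicates.

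Reads shared with other genes could alter some levels. Ftl1 has 7 near-identical genes at other places (at least 90% identity over 200 bases) with values in the tables, and they held 1.09% and 1.12% as many expected counts as Ftl1 in replicates 1 and 2. Nearly all of that was Ftl1-ps1 on chromosome 13, 99.6% identical over 910 bases, with 2049 and 1838 counts. The processed pseudogene Gm6768 on chromosome 12, 99.9% identical to Ncoa4 over 1878 bases, held 3.00% and 2.70% as many counts as Ncoa4. How reads were divided within these pairs is uncertain, but adding every copy moved the Ftl1 to Fth1 ratio only to 1.45. Overlapping genes matter most for Pcbp2, since the labels give no strand. Map3k12, on the opposite strand, overlaps its 3′ end and held 446 and 399 counts, 14.4% and 14.3% as many as Pcbp2. Gm22133, a short microRNA gene inside Ftl1 on the same strand, held 2156 and 1944 counts beside 195447 and 170083 for Ftl1. By TPM, which divides by length, it had 6848 and 6670, near Ftl1 and above Fth1, so it enters the rank given for Fth1. Whether its reads came from Ftl1 RNA was not tested.

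The pools differed little in these genes. None of the 10 differed by 1.1-fold or more, while among the 13016 genes that averaged 50 or more expected counts the share at or past 1.1-fold was 15.9% with replicate 1 higher and 16.4% with replicate 2 higher. Genes with many reads vary less, and all 10 had mean counts above 2500. Among the 3029 genes with that many reads the shares were 2.87% and 3.50%, so a count of 0 in 10 is near this background. With TPM centred on the spike-ins, 5 of 10 were past 1.1-fold, all higher in replicate 1. Among them Fth1, at a log2 ratio of 0.138, lay just at the threshold. Among the 3029 genes the share past 1.1-fold in either direction was then 44.8%, against 6.37% before, so 5 of 10 is again near the background. Of those past the threshold among the 3029 genes, 99.4% were higher in replicate 1, against 45.1% before. Among the 13016 genes the share past 1.1-fold was 52.3% against 32.2%, with 86.1% of those higher in replicate 1 against 49.2% before. That centring moved the median of all these genes by 0.12 in log2 ratio.

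By TPM, 6 of 10 were higher in replicate 1 and 4 in replicate 2. The median log2 ratio was 0.0116 for the 10 genes and also 0.0116 for the 3029 genes with many reads. Spike-in centring shifts every gene alike, and all 10 were then higher in replicate 1. Ftl1, Fth1, Trf, Steap3 and Pcbp2 were higher in replicate 1 under all 6 scalings and pseudocounts run. Slc25a37, Tfrc, Ncoa4 and Slc11a2 were higher in replicate 2 under all of them except spike-in centring, and Pcbp1 was higher in replicate 1 under all except TMM. Ftl1 was 1.06 times as high in replicate 1 (95% counting interval 1.06 to 1.07), and by TPM Slc11a2 was 1.05 times as high in replicate 2 (1.01 to 1.096). These intervals take the length estimated for each gene as exact. For Slc11a2 that length was 3061 bases in replicate 1 and 2969 in replicate 2. With DESeq2 size factors, applied to counts, its log2 ratio was -0.0252, against -0.0714 by TPM, and no interval was computed on that scale. The counting interval left out 1 for Ftl1, Fth1 and Trf (higher in replicate 1) and for Slc25a37, Tfrc and Slc11a2 (higher in replicate 2). It held 1 for Pcbp1, Ncoa4, Steap3 and Pcbp2. The share of all genes whose interval leaves out 1 was not computed, so these counts are no result about the 10 genes. Each pool was 1 library, so such intervals cover counting error only, and a difference between the pools has no replicate check.

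**Figure D4:**
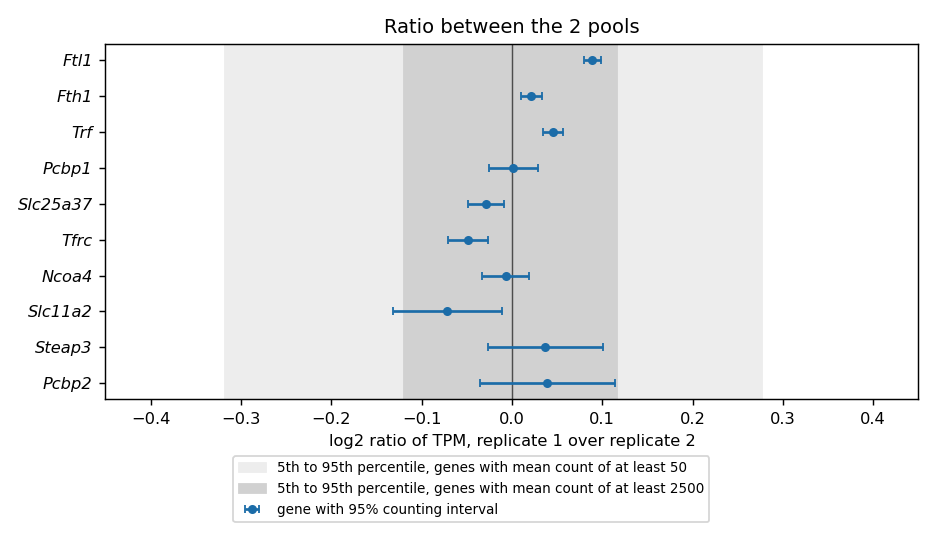
Log2 ratio of TPM, replicate 1 over replicate 2, for each gene, with exact 95% counting intervals. Shaded bands run from the 5th to the 95th percentile of genes averaging 50 or more (light) and 2500 or more (dark) expected counts, and all 10 points, from -0.07 to 0.09, lie inside the dark band.

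Other genes of the pathway were counted from 4 lists of 29 genes, of which 25 were at 1 TPM or more in both libraries. In the list of the transferrin cycle and other iron entry, 11 of 13 were detected, with a median of 12.8 TPM. Its highest were Snx3 (254 and 267 TPM) and Vps35 (122 and 125 TPM), which sort receptors back from endosomes, and Slc39a8, a metal importer (89.9 and 93.5 TPM). Snx3 was thus near the level of Tfrc over all models, which was 194 TPM with protein-coding models alone. Steap4, a relative of Steap3, had 0.39 and 0.53 TPM, and Meltf, melanotransferrin, 0.31 and 0.26 TPM. Tfr2, the second transferrin receptor, had 34.2 and 34.6 TPM, so Tfrc exceeded it by 8.45 ± 0.124 times over all models, and Steap1 had 8.12 and 7.86 TPM.

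Among ferritin receptors, chaperone and ferritin-breakdown partners, 8 of 10 were detected, with a median of 16.98 TPM. The highest were Gabarap (227 and 235 TPM) and Gabarapl2 (129 and 137 TPM), genes of autophagosome proteins, and Bola2 (133 and 116 TPM), which works with Glrx3 in handling iron-sulfur clusters. Herc2, which marks Ncoa4 protein for degradation, had 4.33 and 4.57 TPM. Scara5, a receptor for serum ferritin, had 0.43 and 0.34 TPM. Timd2, listed with it as a ferritin receptor gene, was detected, at 8.46 and 8.9 TPM. Ftmt, mitochondrial ferritin, had no reads, which allows up to 0.0705 and 0.0762 TPM in replicates 1 and 2 at 3 counts.

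All 3 mitochondrial iron partners counted were detected, the lowest being Slc25a28, given above. Fech, whose product inserts iron to form heme, had 453 and 478 TPM, and Abcb10, whose product stabilises mitoferrin-1, had 166 and 170 TPM. All 3 iron regulatory genes were detected at similar values in both pools. Aco1 and Ireb2, which encode the element-binding proteins IRP1 and IRP2, had 23.9 and 23.4 TPM and 14.8 and 14.9 TPM, and Fbxl5, which targets IRP2 for degradation, had 24.3 and 24.1 TPM.

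**Figure D5:**
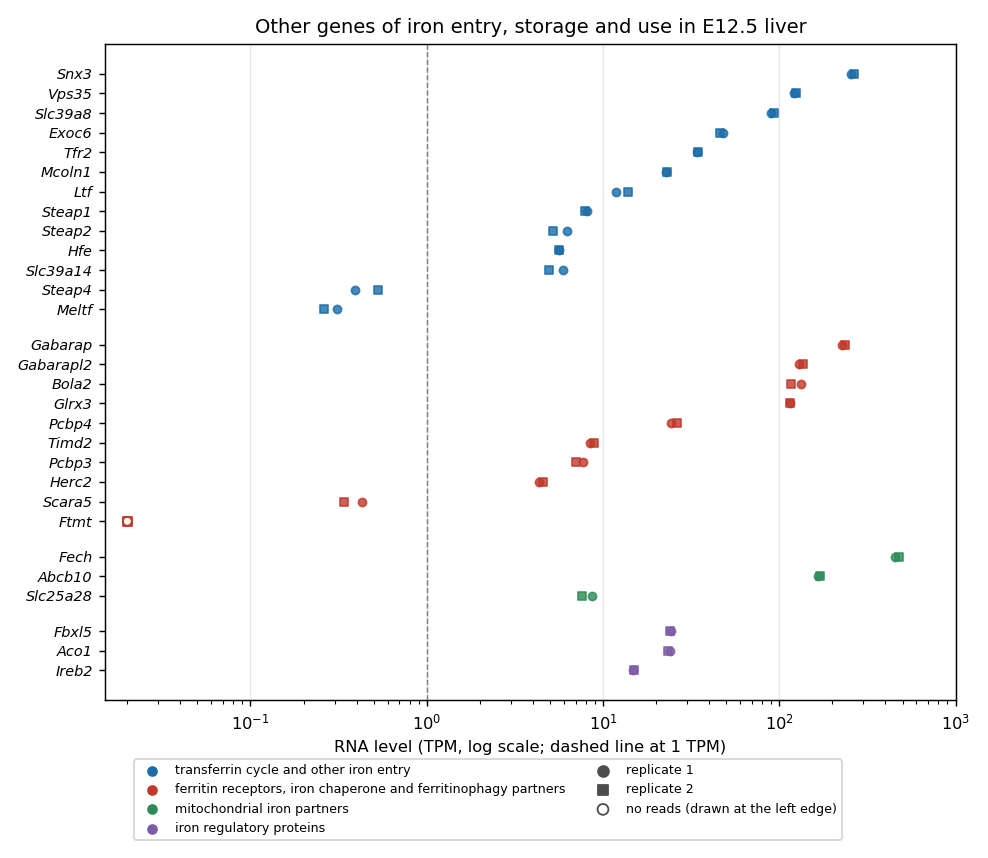
RNA level in TPM (log axis) of 29 further pathway genes by list, with a circle for replicate 1 and a square for replicate 2. Of these, 25 lie at or right of the 1 TPM line in both libraries, and Ftmt, with no reads, is drawn as open symbols at the left edge.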

How the data were processed

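RNA above 200 bases from 2 pools of embryonic livers was sequenced, each library from 10 ng, per the labels. The authors deposited gene and transcript tables for each library, made on mm10 with annotation M4, a GENCODE release, per the text files deposited beside them. Aligner and quantifier: not given in the sources used here. Expected counts are the authors' estimated reads, with reads that fit several transcripts shared out. Deposited TPM and FPKM values are scaled by the authors for effective length and depth, spike-ins included. The deposited percent of a gene's TPM per transcript was recomputed, and deposited posterior mean TPM and posterior SDs of counts were also used.

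Symbols, coordinates and sequences came from GENCODE M21 on the same assembly, and 42462 of 43346 identifiers had a symbol. Transcript models of Fth1-201 (866 bases in the tables, 929 in M21) and of Pcbp2 differ in length between releases. Copies were found with BLAST 2.17.0 (blastn). Pool ratios used log2 of TPM plus 0.1, with exact 95% Clopper-Pearson intervals from rounded counts, and edgeR 4.0.16 (TMM) and DESeq2 1.42.0 (size factors) served only for other scalings. The ratio step was checked on simulated data. The simulated counts held counting error only, so the check does not cover variation between pools or the sharing of reads among transcripts. With 1 group, no p-value was computed. Reads carry no molecular identifiers and PCR copies are not independent, so intervals and floors cover counting error only. FPKM served only as an alternative for the ratios.

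Members and lists were chosen with earlier results of these data known. Named were all members, their transcripts with at least 10% of TPM, the top 3 of each list and list genes under 1 TPM. Herc2, Timd2 and paralogs of members were added after their values were seen. Copies were named at 1% of the member's counts. Some pathway and marker genes of these lists are not reported here.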

Additional observations from a re-analysis of the deposited data

How the results depend on the processing

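The alternatives run for the Ftl1 to Fth1, Tfrc to ferritin and Pcbp1 to Pcbp2 ratios left each on the same side of 1. Of the other ratios between genes, those of Trf and Slc25a37 to Tfrc were also taken on protein-coding models (8.93 ± 0.208 and 1.49 ± 0.00559). On the same models Ncoa4 to Tfrc was 1.25 ± 0.0011 and Steap3 to Slc11a2 1.04 ± 0.0361. The rest were taken under no alternative. Counted as reads and not per length, the Ftl1 to Fth1 ratio was 1.62, the Tfrc to ferritin ratio 0.113, the Pcbp1 to Pcbp2 ratio 7.21 and the share of Slc11a2 with the element 31.4%. The summed ferritin level was 12470 TPM over mouse genes only and 17162.5 TPM without globins, since the total is smaller. Protein-coding transcripts alone gave a Tfrc to ferritin ratio of 0.0166 and an Slc11a2 share of 23.3%, and posterior mean TPM gave a share of 20.5%. That share was 95.3% with at least 3 arm pairs and 0% with all 5. Spike-in centring gave a median log2 ratio of 0.13 over the 10 genes, 5 genes past 1.1-fold and a background of 52.3%. The background was 32.2% in all, 47.7% with no filter on low counts, 12.3% at 1.2-fold, 18.2% at a mean count of at least 500 and 6.37% at 2500 (44.8% with spike-in centring). In all 7 settings tried, 7 of 10 genes stood at 100 TPM or more, and TMM, DESeq2 size factors and other pseudocounts left 0 genes past 1.1-fold. Leaving out either library gave an Ftl1 to Fth1 ratio of 1.41 to 1.47 and an Slc11a2 share of 21.1% to 21.4%. Levels and ratios from protein-coding models, the Slc11a2 share by counts and both backgrounds at 2500 were added after seeing the data. No paired analysis was possible because the series has 1 group. With 2 pooled libraries, variation between embryos is not measured, and transcripts with few reads are not resolved at this depth.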
